A study of Mus musculus with 8 samples.

Results

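The genes described here are 10 nuclear genes whose proteins shape the mitochondrion or mark it for removal: Mfn1, Mfn2 and Opa1 (fusion), Dnm1l and Mff (fission), Immt and Chchd3 (cristae), and Pink1, Bnip3 and Fundc1 (mitophagy). They were found by symbol among the 32285 genes counted, and all 10 were present. Single-nucleus RNA-seq was performed on whole hearts of male mice at 9 weeks of age, with 1 library per mouse, 4 wild-type (WT) mice and 4 Tafazzin-knockout (Taz-KO) mice. Tafazzin, encoded by Taz, remodels cardiolipin, the signature lipid of the inner mitochondrial membrane, and the knockout is a model of Barth Syndrome. The allele, the strain and the tissues in which Taz is deleted are not given in the sources used here. The WT mice are numbered 4686, 4909, 5355 and 5356, and the Taz-KO mice 4685, 4910, 5300 and 5301.

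Mitochondria fuse and divide continuously. Mitofusins 1 and 2 (Mfn1, Mfn2) tether and fuse outer membranes, and Opa1 fuses inner membranes and holds cristae junctions tight, a step in which cardiolipin takes part. The GTPase Drp1, encoded by Dnm1l, is recruited to the outer membrane by receptors such as Mff and constricts the organelle. Mitofilin (Immt) and Chchd3 are subunits of the MICOS complex, which builds cristae junctions. Pink1 is a kinase that accumulates on damaged mitochondria and marks them for removal, while Bnip3 and Fundc1 are outer-membrane receptors that bind the autophagy machinery directly. In the heart, where cardiomyocytes are packed with mitochondria, loss of the mitofusins, Opa1 or Drp1 is known to cause cardiomyopathy in mice.

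Promoter windows of all 10 genes, from 250 bases before to 50 bases after each annotated start of transcription, were found in RefSeq (GRCm38.p6), 14 windows in all because Mfn2 has 3, Dnm1l 2 and Mff 2. Pink1 is shown because it was the only member that passed the test between genotypes in any cell type. Its window lies at chr4:138326247-138326546 on the minus strand, and the capitals mark the 50 bases from the start of transcription. Bnip3 is shown beside it as a mitophagy gene that did not pass. Its window lies at chr7:138909457-138909756, also on the minus strand, and the capitals mark ACGTG, a form of the core of the hypoxia response element. These letters were read on both strands, where the 2 matches overlap.
Pink1: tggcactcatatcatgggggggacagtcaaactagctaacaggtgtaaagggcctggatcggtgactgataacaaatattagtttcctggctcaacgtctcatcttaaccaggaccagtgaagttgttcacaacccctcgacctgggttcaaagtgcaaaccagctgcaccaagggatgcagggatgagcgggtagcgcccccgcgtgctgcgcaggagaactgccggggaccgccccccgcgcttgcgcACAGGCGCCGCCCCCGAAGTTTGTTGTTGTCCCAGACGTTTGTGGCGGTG
Bnip3: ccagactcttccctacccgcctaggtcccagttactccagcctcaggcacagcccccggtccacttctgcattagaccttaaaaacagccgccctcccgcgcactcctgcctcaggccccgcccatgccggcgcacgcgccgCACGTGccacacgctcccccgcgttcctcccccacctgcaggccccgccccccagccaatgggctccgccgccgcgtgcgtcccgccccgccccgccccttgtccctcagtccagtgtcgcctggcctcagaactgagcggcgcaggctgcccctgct
ACGTG was present in 19.6% of all 32851 promoter windows of this length and in 4 of the 14 member windows, those of Bnip3, Chchd3 and Mfn2, and was not found in the window of Pink1. Other forms of the core, such as GCGTG, were not searched or marked. The letters CCAAT occurred in 37.4% of all windows and in 7 of the 14 member windows, those of 7 members but not of Pink1, Mfn2 or Fundc1. The estrogen-related receptor half-site AAGGTCA (4.72% of all windows), the forkhead element TGTTTAC (3.65%) and the amino acid response element TGATGCAA (0.895%), each read on both strands, were found in 0 of the 14 member windows. These are matches of letters and say nothing of binding.

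Of the 151264 nuclei kept, 26091 were in clusters named cardiomyocyte, 37476 fibroblast, 22182 endothelial and 13170 macrophage, from marker lists that include Ryr2 and Ttn, Pdgfra and Bicc1, Ptprb and Flt1, and F13a1 and Mrc1, while 37489 were in clusters left unnamed. Libraries held between 20025456 unique molecular identifiers (UMIs, counted RNA molecules; Taz-KO mouse 5301) and 348080773 (WT mouse 4909), and Taz-KO mice 4685 and 5301 had 3492 and 5571 barcodes where every other library had at least 21190. The lowest UMIs of a barcode were 500 in each of these 2 libraries and 2165 to 6522 in the others, so the deposited barcodes began at unlike depths. All barcodes kept are called nuclei here, and more were kept than in the paper. How many of them held only RNA from outside nuclei was not tested. Libraries shared at most 1.04% of the barcodes of the smaller one. For each mouse the UMIs of a cell type were added up and are given as CPM, the UMIs of a gene per 1000000 UMIs of that cell type in that mouse, and divided further within a cell type by TMM scaling factors where called normalized. Cardiomyocyte sums rested on 143 to 6042 nuclei per mouse, and macrophage sums on 32 to 4343. Of the 3492 barcodes of Taz-KO mouse 4685, 2453 were in 1 unnamed cluster. It was led by Hbb-bt, Hba-a2, Hba-a1 and Hbb-bs and had a median of 25.7% mitochondrial UMIs. The same cluster held 348 barcodes of Taz-KO mouse 5301 and 1526 to 4696 of each other mouse. In Taz-KO mouse 5301, 411 of 1101 cardiomyocyte nuclei were in a cluster that held only 6 nuclei of another mouse. Another 543 were in the cluster with the highest score of atrial markers among the cardiomyocyte clusters (0.948), called the most atrial cluster here. That name is relative: none of its 10 leading genes was an atrial marker, and a smooth muscle cluster scored 1.11. The 5 atrial markers took 67.9 CPM in cardiomyocytes of mouse 5301, the lowest of all mice. The remaining large share of its nuclei, 126, was in the largest cardiomyocyte cluster, which held 94 of 143 in Taz-KO mouse 4685 and most cardiomyocyte nuclei of each other mouse. A further cluster, led by Ptprt and Tenm4, held 31 of 143, 1048 of 6042, 390 of 4024 and 21 of 1101 cardiomyocyte nuclei in Taz-KO mice 4685, 4910, 5300 and 5301, against 81 to 102 of 3419 to 4289 in the WT mice. The cardiomyocyte sums of the genotypes thus differed in the clusters they drew on, and the part of this in the results was not tested beyond the alternatives given. The 7 cardiomyocyte markers together took 51310 to 68460 CPM in WT and 43690 to 59060 CPM in Taz-KO cardiomyocytes. They also took 6754 to 12340 CPM in WT and 3030 to 11440 CPM in Taz-KO fibroblasts, 10080 to 15720 and 4970 to 14310 CPM in endothelial cells, and 11400 to 14600 and 3747 to 13670 CPM in macrophages. All 7 were above 0 in every sum, so the levels given for non-myocytes include RNA of cardiomyocytes in an amount that was not measured.

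Taz itself was at 54.6, 48.1, 53.1 and 57.4 normalized CPM in cardiomyocytes of WT mice 4686, 4909, 5355 and 5356, and at 41.7, 38.1, 23.2 and 34.9 in Taz-KO mice 4685, 4910, 5300 and 5301. Every Taz-KO mouse was below every WT mouse, and the log2 fold change was -0.64 ± 0.18 (SE, adjusted p = 0.0358). The same separation was seen in the non-myocytes, with log2 fold changes of -0.57 ± 0.19 in fibroblasts (adjusted p = 0.307), -1.04 ± 0.21 in endothelial cells (adjusted p = 0.0836) and -0.84 ± 0.20 in macrophages (adjusted p = 0.229). None of these passed with edgeR, while Taz passed in endothelial cells with DESeq2 (-1.06) and in macrophages with edgeR on nuclei named by marker pairs (-0.95). In cardiomyocytes Taz did not pass with edgeR in nuclei with under 5% mitochondrial UMIs (-0.641, adjusted p = 0.0551). Nor did it without Taz-KO mice 4685 and 5301 (-0.777, adjusted p = 0.0572) or in the most atrial cluster alone (-0.805, adjusted p = 0.074). Taz was still counted in the knockout. The files do not show which part of Taz the reads came from, so these counts check the labels only by their direction.

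In cardiomyocytes, 1 of the 10 members passed the test between genotypes: Pink1 was lower in Taz-KO, to 0.53 of its WT level. The other 9 differed by log2 fold changes of -0.28 to 0.20 and did not pass. At the same threshold, an adjusted p of 0.05, 15.8% of all 18271 genes tested passed, and 6.78% passed and were lower in Taz-KO, so that 1 of 10 is near the background. Of the members, 7 had a log2 fold change below 0, with a median of -0.08, against 51.2% of all genes and a median of -0.01. Without scaling factors 5 of the 10 were below 0, against 42.2% of all genes, and without Taz-KO mouse 5300 4 of the 10 were, with a median of 0.01.

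**Figure D1:**
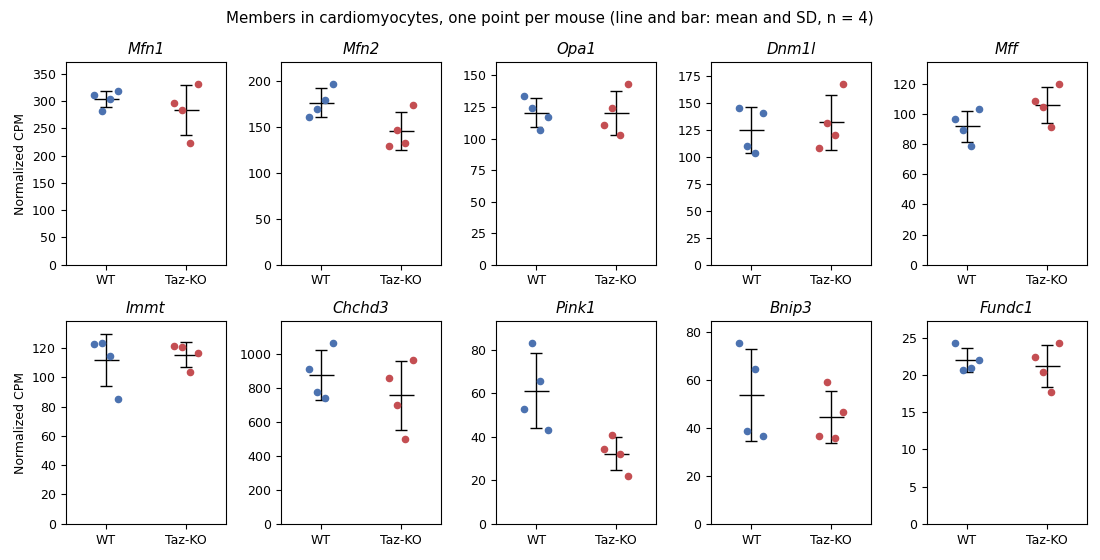
Normalized CPM (y axis, from 0) of each member in cardiomyocytes of 4 WT (blue) and 4 Taz-KO (red) mice, with the mean and SD; points within a group are ordered by mouse number. The groups are apart for Pink1, with WT mice at 43.2 to 83.0 and Taz-KO mice at 22.0 to 40.7. They overlap for the other 9 members. In CPM without scaling factors the groups overlap for Pink1 as well. The share of all genes whose groups are apart was not counted.

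None of the fusion genes passed. Mfn1 was at 312, 282, 303 and 317 normalized CPM in WT mice 4686, 4909, 5355 and 5356, and at 296, 283, 223 and 331 in Taz-KO mice 4685, 4910, 5300 and 5301. The highest mouse, 5301, and the lowest, 5300, were both Taz-KO, and the difference was within their spread (304 ± 15.4 in WT and 283 ± 45.0 in Taz-KO, SD, n = 4 each, log2 fold change -0.10 ± 0.17, adjusted p = 0.756). Mfn2, which also joins mitochondria to the endoplasmic reticulum, was at 160.3, 169.6, 179 and 197 in the WT mice and at 129, 146, 133 and 174 in the Taz-KO mice, in the same order. Taz-KO mice 4685, 4910 and 5300 were below all WT mice, but Taz-KO mouse 5301 was above WT mice 4686 and 4909 (log2 fold change -0.28 ± 0.16, adjusted p = 0.294). Opa1 gave 134, 124, 107 and 117 in WT and 111, 124, 103 and 143 in Taz-KO. Its group means, 120.5 ± 11.4 and 120.2 ± 17.6, were almost the same (log2 fold change -0.00 ± 0.16, adjusted p = 0.994).

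Neither fission gene passed. Dnm1l was at 145, 109.7, 103 and 141 normalized CPM in WT and at 108, 131, 121 and 168 in Taz-KO cardiomyocytes. The groups overlapped over most of their range (log2 fold change 0.08 ± 0.19, adjusted p = 0.830). Mff was at 96.5, 89.4, 78.9 and 103 in WT and at 109, 104, 91.2 and 119.8 in Taz-KO. Only Taz-KO mouse 5300 was within the WT range, and the log2 fold change of 0.20 ± 0.15 did not pass (adjusted p = 0.430).

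Neither of the MICOS genes passed. Immt was at 123, 123, 115 and 85.5 normalized CPM in WT and at 121, 121, 104 and 117 in Taz-KO. WT mouse 5356 was the lowest, and the other 7 mice were close to each other (log2 fold change 0.05 ± 0.16, adjusted p = 0.888). Chchd3 spread widely, with 913, 776, 741 and 1063 in WT and 860.4, 699, 500.3 and 963 in Taz-KO. Taz-KO mouse 5300 was the lowest, and the groups overlapped (log2 fold change -0.21 ± 0.23, adjusted p = 0.613). Reads in introns were counted and Chchd3 spans 269 kb, so its level is compared with others only per kilobase of gene. On that scale it was at 3.12 CPM per kilobase in WT cardiomyocytes, less than Mff (3.23), Pink1 (4.67), Mfn2 (5.49) or Mfn1 (5.91) and more than Bnip3 (2.81), Dnm1l (2.57), Immt (2.38), Opa1 (1.55) or Fundc1 (1.35).

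Pink1 (ENSMUSG00000028756) lies at chr4:138313409-138326307 on the minus strand of GRCm38, and its 12.9 kb overlap no other annotated gene. Of the other members, Dnm1l, Mff, Chchd3 and Bnip3 overlap a gene on the other strand, and Mff also overlaps Gm28941 on its own strand. Among the mitophagy genes Pink1 was at 52.9, 83.0, 65.6 and 43.2 normalized CPM in WT mice 4686, 4909, 5355 and 5356, and at 34.3, 40.7, 31.9 and 22.0 in Taz-KO mice 4685, 4910, 5300 and 5301. In normalized CPM every Taz-KO mouse was below every WT mouse, although WT mouse 5356 and Taz-KO mouse 4910 were close. The means were 61.2 ± 17.2 in WT and 32.2 ± 7.74 in Taz-KO (SD, n = 4 each), with a log2 fold change of -0.92 ± 0.23 and an adjusted p of 0.0210. Bnip3, which is induced by low oxygen, was at 75.4, 38.5, 64.4 and 36.5 in WT and at 36.6, 59.1, 35.6 and 46.4 in Taz-KO. Both groups held mice near 36 and mice near or above 59, and the difference did not pass (log2 fold change -0.27 ± 0.26, adjusted p = 0.558). Fundc1, the other hypoxia-linked receptor, was at 24.3, 20.7, 20.9 and 22.0 in WT and 22.4, 20.3, 17.7 and 24.3 in Taz-KO. Its levels did not separate by genotype (log2 fold change -0.06 ± 0.15, adjusted p = 0.838).

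The level of Pink1 also moved in part with the share of mitochondrial UMIs in the same nuclei. In cardiomyocytes the median share was 7.32%, 18.1%, 9.69% and 5.06% in WT mice 4686, 4909, 5355 and 5356, and 1.48%, 12.9%, 8.71% and 1.22% in Taz-KO mice 4685, 4910, 5300 and 5301. Within each genotype, the mouse with the highest share had the highest level of Pink1 and the mouse with the lowest share the lowest. At similar shares, WT mouse 5355 had 65.6 normalized CPM and Taz-KO mouse 5300 had 31.9, which is only 1 mouse of each genotype. With the log2 of this share as a term in the fit, the log2 fold change of Pink1 was -0.66 (adjusted p = 0.0765). In nuclei with under 5% mitochondrial UMIs, which left out WT mouse 4909 for its 6 such nuclei, it was -0.56 (adjusted p = 0.0641).

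**Figure D2:**
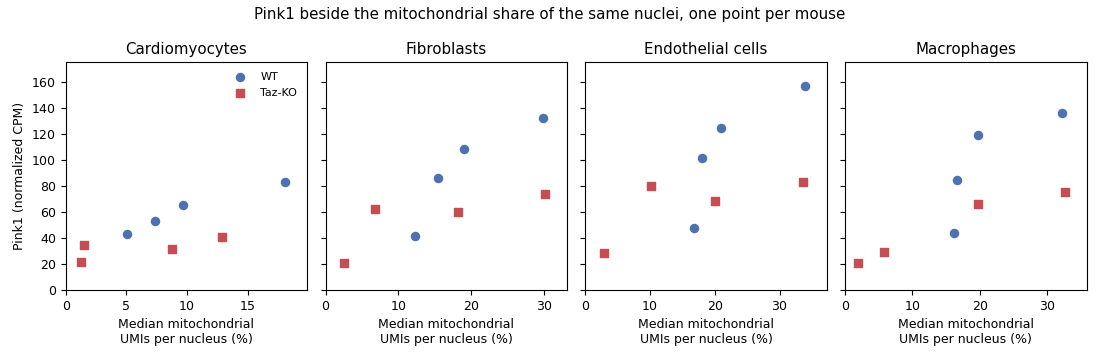
Pink1 in normalized CPM (y axis, from 0) against the median percent of mitochondrial UMIs per nucleus (x axis) in 4 cell types, with 1 point per mouse (WT blue circles, Taz-KO red squares). In cardiomyocytes the 4 WT mice, at 43.2 to 83.0, lie above the 4 Taz-KO mice, at 22.0 to 40.7. In CPM without scaling factors these groups overlap. In each cell type the Taz-KO mouse with the lowest share, 5301, has the lowest Pink1.

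Markers of some other cell types in the cardiomyocyte sums were also lower in Taz-KO, and others were not. The 7 fibroblast markers together were at 4623, 5768, 4584 and 2359 CPM in WT mice 4686, 4909, 5355 and 5356, and at 2746, 2573, 3831 and 987 in Taz-KO mice 4685, 4910, 5300 and 5301, and none of them was at 0 in any mouse. WT mouse 5356 and Taz-KO mouse 5301 were the lowest of their genotype, as for Pink1, while Taz-KO mouse 5300 had the highest fibroblast markers of its genotype and its second-lowest Pink1. The 6 B lymphocyte markers took 125 to 177 CPM in WT and 49.2 to 108 in Taz-KO, with 1 of them at 0 in Taz-KO mouse 4685. The fibroblast markers overlapped between genotypes, as did lower ranges of endothelial markers (7, at 249.7 to 389 in WT and 109.8 to 378 in Taz-KO), macrophage markers (7, at 208 to 317 and 130.3 to 278.5), pericyte markers (6, at 459.8 to 661 and 316.5 to 471.8) and Schwann markers (6, at 39.1 to 70.5 and 27.7 to 53.5). Smooth muscle markers (5, at 18.5 to 59.6 in WT and 51.5 to 234 in Taz-KO, with 1 at 0 in a Taz-KO mouse) and endocardial markers (4, at 158 to 229 and 211 to 276) ran the other way, also with overlap. With a 0.2 share of the library's overall profile subtracted from each sum, the log2 fold change of Pink1 was -1.04 (adjusted p = 0.0214).

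The direction of Pink1 in cardiomyocytes held under every alternative tried, with log2 fold changes of -1.06 to -0.56, but its side of the threshold did not: it was not below an adjusted p of 0.05 without Taz-KO mouse 4685 (0.0530), WT mouse 4909 (0.0724) or Taz-KO mouse 5300 (0.0620). Without scaling factors it was -0.83 (adjusted p = 0.0771), and another member had a lower adjusted p with edgeR (0.0626). In that setting the median of all genes rose by 0.10 on the log2 scale, and 67.2% of the calls were higher in Taz-KO against 57.0% with the factors. In CPM without those factors, Pink1 in WT mouse 5356 (37.0) was below that in Taz-KO mice 4910 (41.0) and 5300 (38.6). Without the cluster that came almost wholly from Taz-KO mouse 5301 the log2 fold change was -0.89 (adjusted p = 0.0310), and without the 2 small libraries, Taz-KO mice 4685 and 5301, it was -0.74 (adjusted p = 0.129).

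The other genes of these pathways were taken from a list of 70, of which 68 were tested in cardiomyocytes and 5 passed (7.35%), 4 higher and 1 lower in Taz-KO. Across all genes 15.8% passed, so the list did not hold more calls than the background. The median log2 fold change of the list was -0.06, and 39 of the 68 were below 0.

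Of the fission genes outside the members, 2 of 14 tested passed. Spire1, an actin nucleator with a mitochondrial isoform, was at 12.5, 10.7, 11.1 and 12.9 normalized CPM in WT mice 4686, 4909, 5355 and 5356, and at 24.7, 21.4, 15.4 and 27.4 in Taz-KO mice 4685, 4910, 5300 and 5301. All Taz-KO mice were above all WT mice (log2 fold change 0.90 ± 0.19, adjusted p = 0.00906). Dnm2, a dynamin that takes part in endocytosis and has been linked to late steps of division, was at 105, 92.8, 91.1 and 106 in WT and at 159, 141, 116 and 179 in Taz-KO. It was also higher in every Taz-KO mouse (log2 fold change 0.59 ± 0.17, adjusted p = 0.0374). Fis1, an outer-membrane adaptor, had values of 16.5 to 48.0 and did not pass (log2 fold change 0.14 ± 0.31, adjusted p = 0.825).

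Of the genes for fusion and inner-membrane processing, 1 of 10 passed. Afg3l2, a subunit of the matrix-facing AAA protease, was at 126, 99.6, 94.9 and 106 normalized CPM in WT and at 181, 149, 122 and 195 in Taz-KO. Taz-KO mouse 5300 was below WT mouse 4686, and the other 3 Taz-KO mice were above all WT mice (log2 fold change 0.60 ± 0.19, adjusted p = 0.0495). The proteases that cleave Opa1 did not pass, with log2 fold changes of 0.14 ± 0.19 for Oma1 (adjusted p = 0.690) and -0.03 ± 0.14 for Yme1l1 (adjusted p = 0.917).

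Of the cristae genes, 0 of 15 passed with edgeR. Samm50, the core of the outer-membrane sorting complex that partners MICOS, passed with DESeq2 (adjusted p = 0.0339), and with edgeR when ambient RNA was subtracted (adjusted p = 0.0250) or doublets were kept (adjusted p = 0.0470). Samm50 was lower in every Taz-KO mouse, at 35.0 to 44.3 against 49.0 to 60.3 normalized CPM in WT (log2 fold change -0.43 ± 0.14, adjusted p = 0.0617 with edgeR). Chchd6, the cardiac-rich MICOS subunit close to Chchd3, had a log2 fold change of 0.27 ± 0.18 (adjusted p = 0.363).

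Of the mitophagy genes outside the members, 2 of 25 tested passed, in opposite directions. Ulk1, the kinase that starts autophagy, was at 35.2, 31.8, 29.2 and 35.8 normalized CPM in WT mice and at 16.7, 24.1, 21.2 and 17.2 in Taz-KO mice. All Taz-KO mice were below all WT mice (log2 fold change -0.72 ± 0.16, adjusted p = 0.0112). Sqstm1, the cargo receptor p62, was at 136, 154, 138 and 95.7 in WT and at 254, 209, 155 and 210.0 in Taz-KO. It was higher in Taz-KO (log2 fold change 0.66 ± 0.20, adjusted p = 0.0493), with Taz-KO mouse 5300 and WT mouse 4909 almost level. Bnip3l, the paralog of Bnip3, had a log2 fold change of -0.53 ± 0.22 (adjusted p = 0.129). Of the 4 genes that move mitochondria along microtubules, 0 passed with edgeR or DESeq2 and 1 was under an unadjusted p of 0.05, with log2 fold changes of -0.51 to -0.05.

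**Figure D3:**
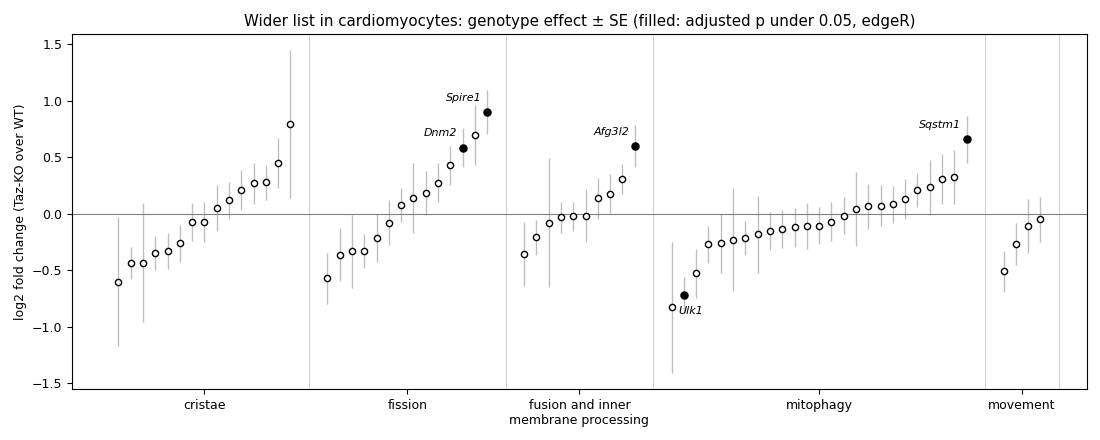
The log2 fold change (Taz-KO over WT, y axis) with its SE of the 68 tested genes of the wider list in cardiomyocytes, ordered within each role along the x axis; filled points passed an adjusted p of 0.05 with edgeR. The filled points are Spire1 (0.90), Sqstm1 (0.66), Afg3l2 (0.60) and Dnm2 (0.59) above 0, and Ulk1 (-0.72) below 0.

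Of these 5 genes, Spire1 and Ulk1 stayed under an adjusted p of 0.05 with any 1 mouse left out, while Dnm2, Sqstm1 and Afg3l2 stayed under it only without Taz-KO mouse 5300. Without both Taz-KO mice 4685 and 5301 none of the 5 passed with edgeR, and their lowest adjusted p was 0.0676, for Spire1. With the mitochondrial share as a term Spire1 (0.71, adjusted p = 0.0246) and Ulk1 (-0.62, adjusted p = 0.0293) passed and Dnm2, Sqstm1 and Afg3l2 did not, and with marker pairs per nucleus Sqstm1 and Afg3l2 did not. Of other genes in the list, March5 passed without WT mouse 4686, Bnip3l without Taz-KO mouse 4910, Mtfp1 and Samm50 without WT mouse 5356, and Parl without scaling factors (0.40, adjusted p = 0.0276), March5, Mtfp1 and Parl being named after their values were seen. In the 1 cardiomyocyte cluster with the highest score of atrial markers, taken alone, none of the 5 and no member passed with edgeR, with 480 of all genes called there.

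In fibroblasts, endothelial cells and macrophages no member passed with edgeR or DESeq2, and none was under an unadjusted p of 0.05 with edgeR (with DESeq2, 1 was, in macrophages). The background was low in these cell types: among all genes tested, 0.350% passed in fibroblasts, and the share was 0.456% for endothelial cells and 0.183% for macrophages. Members with a log2 fold change below 0 numbered 8 of 10 in fibroblasts (median -0.18), 9 of 10 in endothelial cells (median -0.22) and 8 of 10 in macrophages (median -0.16), where 49.7%, 48.0% and 47.2% of all genes were below 0. These tallies changed without the 2 small libraries: without Taz-KO mice 4685 and 5301, 5 of 10 were below 0 in fibroblasts (median -0.01), 4 of 10 in endothelial cells (median 0.02) and 5 of 10 in macrophages (median -0.00). With nuclei named by marker pairs, 5 of 10 were below 0 in macrophages (median -0.03), and without Taz-KO mouse 5301 alone the endothelial median was -0.08. These 3 comparisons are of the same 8 libraries.

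Pink1 had the lowest log2 fold change of the members in each. In fibroblasts it was at 86.5, 132, 108 and 41.3 normalized CPM in WT mice 4686, 4909, 5355 and 5356, and at 62.7, 73.6, 60.2 and 21.2 in Taz-KO mice 4685, 4910, 5300 and 5301. WT mouse 5356 was below 3 Taz-KO mice (log2 fold change -0.74 ± 0.42, adjusted p = 0.678). In endothelial cells the values were 102, 157, 124 and 47.8 in WT and 80.4, 83.1, 68.4 and 28.3 in Taz-KO. The 8 mice stood in the same order as in fibroblasts (log2 fold change -0.70 ± 0.39, adjusted p = 0.732). In macrophages they were 84.9, 136, 119.6 and 44.2 in WT and 29.2, 75.5, 66.3 and 20.8 in Taz-KO (log2 fold change -0.89 ± 0.44, adjusted p = 0.799). The size in macrophages depended on which nuclei were taken: Pink1 was at -0.39 with marker pairs per nucleus and -0.36 at the lower cluster resolution. Without Taz-KO mice 4685 and 5301 it was -0.44 in macrophages, -0.45 in fibroblasts and -0.51 in endothelial cells. Over all barcodes of a library, without scaling factors, Pink1 was at 68.5, 106, 82.5 and 40.9 CPM in the WT libraries and at 66.9, 54.7, 52.1 and 21.4 in the Taz-KO libraries. WT mouse 5356 and Taz-KO mouse 5301 had the lowest level of their genotype in the whole library as in each of the 3 cell types. The same mice had the lowest cardiomyocyte markers of their genotype in all 3 cell types, and the lowest fibroblast markers in endothelial sums (3390 and 963 CPM, against 6278 to 11830 in the other mice) and macrophage sums (3363 and 828, against 5890 to 9856). The part of these in the Pink1 values was not tested.

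The remaining members had smaller log2 fold changes than Pink1 outside cardiomyocytes, and none of them passed. Mfn1 and Mfn2 were below WT in each cell type, with log2 fold changes of -0.32 and -0.38 in fibroblasts, -0.31 and -0.35 in endothelial cells and -0.38 and -0.40 in macrophages. Mff was above WT in each, at 0.18, 0.18 and 0.07 in the same order. In fibroblasts every Taz-KO mouse, at 74.0 to 81.6 normalized CPM, was above every WT mouse, at 63.3 to 71.1 (log2 fold change 0.18 ± 0.12, adjusted p = 0.762). Over all barcodes of a library, without scaling factors, Mff was at 72.16 to 75.15 CPM in the WT libraries and at 89.25 to 92.13 in the Taz-KO libraries. Every other member overlapped between genotypes there. These whole-library levels were not tested, and the share of all genes apart in them was not counted. Without Taz-KO mice 4685 and 5301, the log2 fold changes of Immt, Bnip3 and Fundc1 were above 0 in all 3 cell types (0.00 to 0.15), as was that of Mfn2 in endothelial cells (0.03). Immt was lowest in Taz-KO mouse 5301 and WT mouse 5356 in each of these cell types. In endothelial cells these were at 64.7 and 88.4 normalized CPM against 147 to 181 in the other 6 mice. The fewest UMIs behind a member in 1 mouse were 4 for Fundc1 in macrophages, 13 for Fundc1 in endothelial cells and 28 for Bnip3 in fibroblasts, against 79 for Fundc1 in cardiomyocytes. In the wider list 0 of 67 genes tested passed with edgeR in any of these 3 cell types, and the fibroblasts had 2 genes under an unadjusted p of 0.05, the endothelial cells 1 and the macrophages 0.

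**Figure D4:**
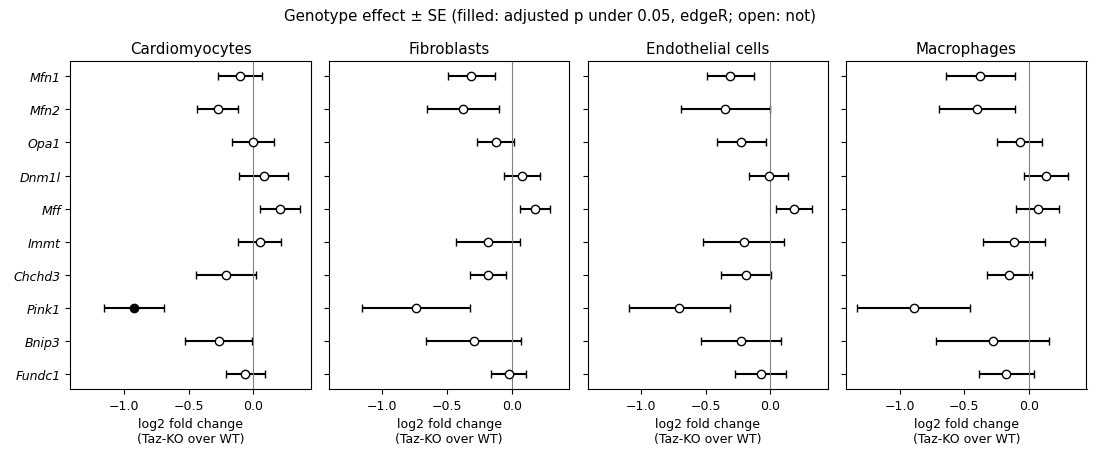
The log2 fold change (Taz-KO over WT, x axis) with its SE for each member in 4 cell types; filled points passed an adjusted p of 0.05 with edgeR. Pink1 in cardiomyocytes (-0.92) is the only filled point, and Pink1 is the lowest in each cell type, at -0.89 in macrophages (-0.36 to -0.44 with other naming of nuclei or without Taz-KO mice 4685 and 5301), -0.74 in fibroblasts and -0.70 in endothelial cells.

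Whether the genotype effect of a member differed between cardiomyocytes and another cell type was tested directly, with the mouse as a block. No member passed against fibroblasts, endothelial cells or macrophages with edgeR, and none was under an unadjusted p of 0.05, where 4.58%, 2.48% and 2.01% of all genes passed. For Pink1 the effect in cardiomyocytes minus that in fibroblasts was -0.14 ± 0.21 on the log2 scale (adjusted p = 0.789). Against endothelial cells it was -0.20 ± 0.20 (adjusted p = 0.707), and against macrophages -0.10 ± 0.28 (adjusted p = 0.926). The lower Pink1 in Taz-KO is not shown to be particular to cardiomyocytes. In the wider list Spire1 passed against fibroblasts (0.78 ± 0.13, adjusted p = 0.00628) and endothelial cells (0.90 ± 0.17, adjusted p = 0.0138). Dnm2 (0.64 ± 0.12, adjusted p = 0.0141) and Ulk1 (-0.61 ± 0.15, adjusted p = 0.0457) passed against fibroblasts. Spire1 did not pass against macrophages (adjusted p = 0.0735), nor did Dnm2 or Ulk1 against endothelial cells or macrophages. The differences that passed did not all hold under every alternative tried, and those values are not listed here.

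The levels of the members in WT mice set 4 of them apart by cell type. The share of all genes set apart in this way was not counted, so this number is a description only. In CPM without scaling factors, Chchd3 was at 839 ± 74.6 in cardiomyocytes and at 248 ± 19.9 to 272 ± 26.8 in the other cell types (SD, n = 4). Mfn1 was at 294 ± 16.9 in cardiomyocytes against 98.5 ± 17.8 to 114 ± 14.6. Mfn2 (171 ± 11.1 against 86.0 ± 20.4 to 95.9 ± 27.4) and Mff (88.8 ± 6.03 against 61.3 ± 3.55 to 66.6 ± 3.02) followed. For these 4 genes every cardiomyocyte sum was above every WT sum of the cell type next in order, and the other 3 cell types overlapped from neighbor to neighbor. The cardiomyocyte RNA in the other cell types is part of their levels, so these ratios are of the sums and not of the cells.

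The other 6 members had no such gap, and each cell type overlapped with the next in order. Opa1 was at 127 ± 5.95 in macrophages, 121 ± 11.3 in endothelial cells, 117 ± 14.6 in cardiomyocytes and 113 ± 3.53 in fibroblasts. Dnm1l ran from 120.2 ± 15.7 in cardiomyocytes through macrophages (105.5 ± 7.71) and endothelial cells (96.5 ± 3.84) to 92.0 ± 8.15 in fibroblasts. Fundc1 was within 21.3 ± 1.98 and 23.9 ± 1.35 in all 4. Bnip3 was highest in cardiomyocytes (52.6 ± 20.3), followed by endothelial cells (44.6 ± 13.6), macrophages (36.3 ± 11.9) and fibroblasts (32.3 ± 12.5). Immt and Pink1 were lowest in cardiomyocytes, at 109 ± 24.4 and 60.2 ± 20.7, and highest in endothelial cells, at 147 ± 41.1 and 105 ± 44.4, with WT mouse 5356 the lowest in each cell type for both. The median share of mitochondrial UMIs was also lower in cardiomyocytes, at 5.06% to 18.1% in WT, than in endothelial cells, at 16.8% to 33.9%, and the part of this in the order of Pink1 was not tested.

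**Figure D5:**
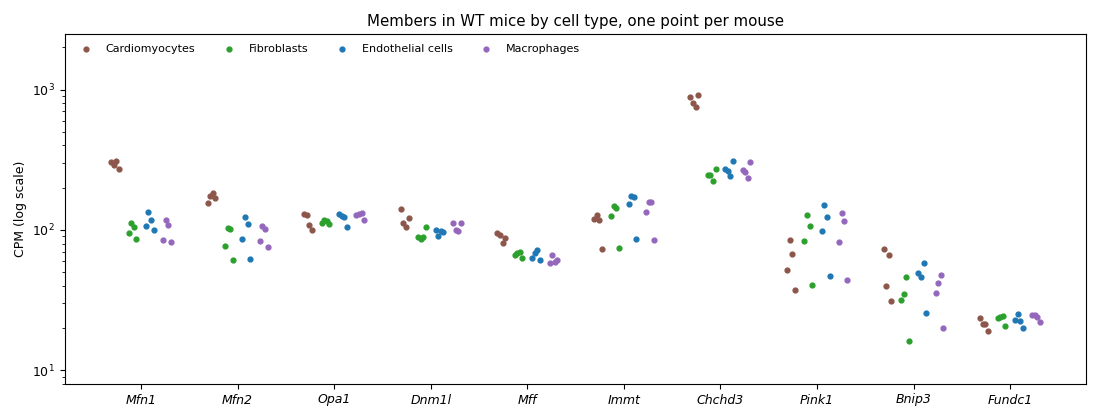
CPM without scaling factors (y axis, log scale) of the 10 members in the 4 WT mice, 1 point per mouse, by cell type (color). The cardiomyocyte points of Chchd3 (839 on average), Mfn1 (294), Mfn2 (171) and Mff (88.8) lie above those of the other cell types. For the other 6 members each cell type overlaps with the next in order of the mean, though not always with those further off.

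Over the 32 sums of mouse and cell type, the genes whose log2(CPM + 1) ran most like that of Pink1 were Ndufv3, a subunit of respiratory complex I (Pearson r = 0.977), and Mb, which encodes myoglobin (r = 0.956), among genes of at least 5 CPM on average. Sums of a mouse share a library, and the r is a description across them.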

How the data were processed

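Nuclei from whole hearts of 8 mice (1 library per mouse) were profiled with 3′ single-nucleus RNA-seq. The deposited values are whole-number counts of UMIs for each gene in each barcode, made per the file headers and the submitters' processing notes with Cell Ranger 6.0.1 on mm10, with reads in introns counted and with no correction for ambient RNA or doublets. Genotypes came from the labels. The separate mice are the replicates, and intervals of counting error were not needed beside the spread between mice.

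Barcodes with under 800 UMIs or 250 genes were removed, as were 16231 of the remaining 167495 that were scored as doublets, a share set beforehand for each library. The nuclei kept were integrated and clustered (15 principal components, 2000 variable genes without the members or the wider list, Leiden resolution 0.9, 38 clusters). Clusters were named from marker lists. The rule for naming was revised after the marker scores had been seen. The counts of each cell type were added up within a mouse (at least 10 nuclei) and tested with edgeR 4.0.16 (TMM, filterByExpr, robust quasi-likelihood F test, Benjamini-Hochberg over all genes of the cell type, called under an adjusted p of 0.05). SEs were taken as the log2 fold change divided by the square root of F. Differences between cell types were tested as an interaction with the mouse as a block. DESeq2 1.42.0 was an alternative, beside those in the closing section.

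The members and all lists were chosen with earlier results of these data known. Genes named are the members, Taz, the genes of the wider list that passed and, whatever their p, those of that list fixed by name (Bnip3l, Oma1, Yme1l1, Fis1, Chchd6, Samm50 and Sqstm1) apart from a gene that is not reported here, and, for members that passed in cardiomyocytes, the 2 genes most like them. Gdap1 and Calcoco2 were too low to be tested in any cell type, and Pld6 outside cardiomyocytes. Since Mff and Gm28941 overlap on the same strand, reads of these genes may not be separable where they overlap. Positions in Taz, and proteins of the members, were not analysed here.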

Additional observations from a re-analysis of the deposited data

Results flagged for a closer look

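In 128 groups of 4 mice (the members, Taz and the 5 genes of the wider list that passed, in 4 cell types), 6 values lay far from the other 3 mice of their group by Dixon's criterion, which chance meets in about 1 in 20 groups. In fibroblasts of WT mouse 5356 Dnm1l was at 105 normalized CPM against 89.9 to 92.3, and Fundc1 at 20.8 against 24.5 to 24.8. The other 4 were in Taz-KO mouse 5301, which had the fewest UMIs. Sqstm1 was at 102 against 150.0 to 159 in its fibroblasts and at 60.6 against 150.0 to 158 in its endothelial cells, where Immt was at 64.7 against 147 to 158 and Dnm2 at 216 against 120.0 to 128.

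The effect of genotype differed between cell types for 3 genes of the wider list, by the interaction test with edgeR, in which 4.58% of all genes passed against fibroblasts and 2.48% against endothelial cells, so the list held no more calls than the background. The effect in cardiomyocytes minus that in fibroblasts was 0.78 on the log2 scale for Spire1 (adjusted p = 0.00628), 0.64 for Dnm2 (adjusted p = 0.0141) and -0.61 for Ulk1 (adjusted p = 0.0457). Against endothelial cells it was 0.90 for Spire1 (adjusted p = 0.0138). Spire1 did not pass against macrophages, and Dnm2 and Ulk1 did not pass against endothelial cells or macrophages. Some of the differences that passed were lost under some of the alternatives.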

How the results depend on the processing

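No paired analysis was possible because the mouse numbers are not shared between genotypes. Of 730 alternative values of the members, 674 kept their direction and their side of the threshold and 48 changed sign. The other 8, all of Pink1 in cardiomyocytes, kept their direction and no longer passed. The cause was not tested.

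Pink1 in cardiomyocytes, and with it the count of members called (0), was not called under 5% mitochondrial UMIs (-0.56), with the mitochondrial share as a term (-0.66), without scaling factors (-0.83), in the most atrial cluster alone (-0.84) or without Taz-KO mice 4685 and 5301 (-0.74). The wider list had 3 calls with RLE normalization, marker pairs per nucleus or no cluster of 1 mouse, 2 with the mitochondrial term or no filter, and 0 in the most atrial cluster (480 of all genes) or without mice 4685 and 5301. Taz in cardiomyocytes was not called under 5% mitochondrial UMIs (-0.64), in the most atrial cluster (-0.81) or without those mice (-0.78), and Taz was called in endothelial cells with DESeq2 (-1.06) and in macrophages with marker pairs (-0.95).

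Sign changes in cardiomyocytes were those of Opa1 with doublets kept (0.0162), marker pairs (0.0592), no scaling factors (0.0766) and no most atrial cluster (0.0183), Dnm1l with the mitochondrial term (-0.0142), under 5% (-0.0312) and without clusters of 1 mouse (-0.0246), and Fundc1 without scaling factors (0.0249). Elsewhere they were, with marker pairs, Bnip3 (0.0422), Immt (0.219) and Opa1 (0.00321) in macrophages and Dnm1l (0.0324) and Fundc1 (0.0150) in endothelial cells; at resolution 0.5, Bnip3 (0.0209) and Immt (0.195) in macrophages; with ambient RNA subtracted, Mff in macrophages (-0.00510); and without scaling factors, Dnm1l (0.0593) and Fundc1 (0.00170) in endothelial cells and Fundc1 in fibroblasts (0.0565). Without mice 4685 and 5301 they were Bnip3 (0.103, 0.0387 and 0.153), Fundc1 (0.0278, 0.0591 and 0.00116) and Immt (0.0326, 0.0171 and 0.0614) in fibroblasts, endothelial cells and macrophages, and Mfn2 (0.0250) and Dnm1l (0.0564) in endothelial cells.

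Counts of all genes called in fibroblasts, endothelial cells and macrophages were 321, 293 and 116 with DESeq2, 0, 1 and 0 with ambient RNA subtracted, 97, 127 and 101 without the filter, and 119, 124 and 114 without mice 4685 and 5301. Endothelial cells had 130 and macrophages 353 with marker pairs, and macrophages 47 with doublets kept and 162 at resolution 0.5. For the differences, subtracting ambient RNA gave 332, 92 and 60 against fibroblasts, endothelial cells and macrophages, and the count against macrophages was 587 without the filter, 504 at resolution 0.5 and 599 without mice 4685 and 5301.

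With 1 mouse left out at a time, Pink1 in cardiomyocytes ranged from -1.06 to -0.73, Taz from -0.72 to -0.48, calls among members from 0 to 1, in the wider list from 2 to 5 and among all genes from 1890 to 2646. Ranges that crossed 0 were those of Dnm1l (-0.0395 to 0.173), Fundc1 (-0.126 to 0.0215), Immt (-0.0748 to 0.106), Mfn1 (-0.173 to 0.00206) and Opa1 (-0.0868 to 0.0680) in cardiomyocytes, Dnm1l in fibroblasts (-0.0125 to 0.133), Dnm1l (-0.0605 to 0.0578), Fundc1 (-0.175 to 0.0489) and Immt (-0.398 to 0.00518) in endothelial cells, and Bnip3 (-0.546 to 0.0385), Immt (-0.268 to 0.00258), Mff (-0.0328 to 0.150) and Opa1 (-0.146 to 0.00983) in macrophages. All genes called ranged from 7 to 129 in fibroblasts, 12 to 164 in endothelial cells and 2 to 108 in macrophages, and for the differences from 461 to 1108, 188 to 661 and 133 to 476 in the same order.

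The alternative without atrial clusters was not run, since no cluster had atrial markers among its 10 leading genes, and the most atrial cluster, the clusters of 1 mouse, the mitochondrial term and the lack of scaling factors were added after seeing the data. The alternative under 5% mitochondrial UMIs gave no value outside cardiomyocytes for want of mice.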
